A study of Danio rerio with 4 samples.

Results

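The genes described here are 9 Krüppel-like factor (Klf) genes, klf2a, klf2b, klf3, klf4, klf6a, klf9, klf11a, klf11b and klf13, measured in endothelium sorted from the caudal hematopoietic tissue, the blood-forming niche of the zebrafish larval tail. They were found by symbol in the gene name table, and each of the 9 had 1 row among the 28346 genes of the deposited tables. The name table writes some zebrafish genes in the human style, without a paralog letter. The name KLF11 therefore stands at 2 rows, ENSDARG00000013794 and ENSDARG00000030844. They are klf11a and klf11b, but which is which is not given, so the identifier is used for them below.

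The vein group held cells positive for both reporters of Tg(kdrl:GFP;lyve1b:DsRed) larvae, and the non-vein group held cells positive for GFP alone. GFP was driven by the promoter of kdrl, a receptor gene for vascular endothelial growth factor, and DsRed by that of lyve1b, which veins and lymphatics express and whose protein binds hyaluronan. All larvae were labelled wild type, were not treated and were taken 5 days after fertilisation, and each group had 2 RNA-seq libraries. How many larvae were pooled, and whether the 2 libraries of a group came from separate sorts, is not stated by the labels, so p-values measure the spread between these libraries, which may be technical.

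Krüppel-like factors are transcription factors that bind GC-rich and CACCC sequences through zinc fingers at their carboxy end, while their other end recruits activators or corepressors. In blood vessels Klf2 and Klf4 respond to the shear of flowing blood: the kinases MEKK3, MEK5 and ERK5 activate MEF2 factors, which switch on the Klf2 and Klf4 genes, and the cerebral cavernous malformation (CCM) proteins hold this cascade back. In zebrafish, klf2a depends on blood flow, and klf6a in the vascular niche of the caudal hematopoietic tissue is known to act through the chemokine ccl25b and its receptor ccr7 on blood stem and progenitor cells.

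Estimated counts summed to 15672159 and 16409447 in the vein libraries and to 18047152 and 18862102 in the non-vein libraries. Of 15953 genes tested with edgeR's quasi-likelihood test, 1826 passed an adjusted p of 0.05, 656 higher and 1170 lower in the vein group. All 9 pan-endothelial markers tested were detected in every library. Their summed level was 13044 and 10572 CPM (counts scaled to the library total after TMM scaling) in the vein libraries, against 2964 and 4151 CPM in non-vein libraries, and 6 of 9 were higher in the vein group (3 without vein replicate 1). Of 12 vein and lymphatic markers tested, 8 were higher, with a summed level of 7835 and 8007 CPM in vein libraries and 413 and 1231 CPM in non-vein libraries. The 8 include lyve1b, whose promoter drove the DsRed used for the sort, so its direction is no separate check. Of 12 arterial markers tested, 6 were lower and 1, dll4, was higher, with sums of 787 and 807 CPM in vein libraries and 3415 and 3235 CPM in non-vein libraries. The 6 include both rows named CXCR4, although the list names cxcr4a alone. Blood progenitor and leukocyte markers summed to 97.6 and 224 CPM in vein libraries and 2252 and 1711 CPM in non-vein libraries, and 5 of 10 were lower in the vein group (9 without vein replicate 2). In vein replicate 1, 4 of these 10 (ptprc, runx1, gata2b and cd74a) were at 0, and none was at 0 in the other libraries. Lymphocyte markers summed to 5.81 and 16.5 CPM in vein libraries and 206 and 131 CPM in non-vein libraries, where 1 of the 2 tested, CCR9, was lower in the vein group. Almost all of these sums was that 1 CCR9 row, with 5.81 and 14.1 CPM in vein and 205 and 129 CPM in non-vein. Of the 9 rows of the list, 8 and 7 were at 0 in the vein libraries and 7 and 5 in the non-vein libraries. Epidermal markers summed to 56.5 CPM in vein replicate 1 and 514 CPM in vein replicate 2, and to 98.9 and 135 CPM in non-vein libraries, with none of 8 past the threshold by edgeR, adjusted or unadjusted (1 by DESeq2, and 3 higher without vein replicate 1). Neutrophil and macrophage markers summed to 114 and 611 CPM in vein libraries and 670 and 634 CPM in non-vein libraries. Neither of the 2 tested, lyz and mmp13a, passed in the edgeR fit used here. In that fit mmp13a had an unadjusted p under 0.05. With edgeR's version 4 method 1 of the 2 was higher, and without a filter 2 of 5 tested were higher. DESeq2, run without the filter on low counts used for edgeR but with its own default filtering, called mmp13a and a row named MPEG1 higher. In edgeR mmp13a was higher without non-vein replicate 1 and lyz lower without vein replicate 2. Erythroid markers summed to 744 and 1293 CPM in vein libraries and 1149 and 840 CPM in non-vein libraries. Most of each sum was hbae1.1, with 675 and 1132 CPM in vein and 1123 and 792 CPM in non-vein. None of 7 tested passed the threshold in the edgeR fit used here. At an unadjusted p under 0.05, 1 was higher, as was 1 by DESeq2 and 1 by edgeR's version 4 method. Of the 7, 6 had a log2 fold above 0, with a median of 1.92 (1.19 to 2.38 with 1 library left out). For 3 of the list's 8 rows both vein libraries lay above both non-vein libraries, and for 0 below. SLC4A1 (ENSDARG00000012881) had a log2 fold of 1.92, and of 3.54 without non-vein replicate 2. Mural cell markers summed to 893 and 825 CPM in vein libraries and 699 and 620 CPM in non-vein libraries, with TAGLN higher and notch3 and RGS5 lower among 5 tested. The call of notch3 was lost without non-vein replicate 1 (adjusted p = 0.0517, edgeR) or non-vein replicate 2 (0.118). The part that these other cells have in the values of the Klf genes was not tested.

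All 9 Klf genes were detected in every library, with 67 to 8020 counts a library, and all 9 passed the filter on low counts. In vein, klf2a, klf2b, klf6a and klf9 had the highest levels per transcript length, both KLF11 genes and klf3 lay in the middle, and klf4 and klf13 were lowest. Of the 9, klf2b and klf9 were higher in the vein group, none was lower, and 7 did not pass the threshold. The share of all genes tested that passed was 11.4%, with 4.11% higher and 7.33% lower. At an unadjusted p under 0.05, 6 of the 9 passed, all of them higher in vein, beside 30.1% of all genes in either direction and 12.3% higher. For 7 of the 9 both vein libraries had more CPM than both non-vein libraries, which was so for 29.0% of all genes tested. None of the 9 had both vein libraries below both non-vein libraries, which was so for 33.1%, and klf4 and klf13 overlapped. The log2 fold was above 0 for 7 of the 9 and for 50.2% of all genes. The median log2 fold of the 9 was 0.80, beside 0.01 over all genes tested. In such sorted bulk samples, fewer cells that express a gene and less RNA per cell cannot be told apart.

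Levels can be set between genes on the FPKM scale, which divides by transcript length. In the vein group klf2a had 235 and 169 FPKM and klf2b 185 FPKM in both libraries, so that their ranges overlapped at the top of the order. Next came klf6a with 84.5 and 94.7 FPKM, then klf9 with 75.3 and 75.1 FPKM, and neither range overlapped that of its neighbour above. Both KLF11 genes and klf3 followed with ranges that overlapped each other, and klf4 and klf13 came last. By mean FPKM, klf2a ranked 583 among the 28346 genes in the vein group and 966 in the non-vein group, and klf2b ranked 615 in the vein group and 1870 in the non-vein group. In the non-vein group klf2a came first with 112 and 154 FPKM, while klf6a with 53.8 and 59.9 FPKM and klf2b with 48.9 and 62.1 FPKM overlapped. There klf9 overlapped KLF11 ENSDARG00000013794, and klf4 overlapped KLF11 ENSDARG00000030844. The 9 genes together had 687 and 639 FPKM in the vein libraries and 303 and 377 FPKM in the non-vein libraries. They made up 85.3% to 90.9% of the FPKM of the Klf genes matched by name in a library. The symbols klf10, klf14, klf16, klf18 and klfd had no match and are not in that total.

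**Figure D1:**
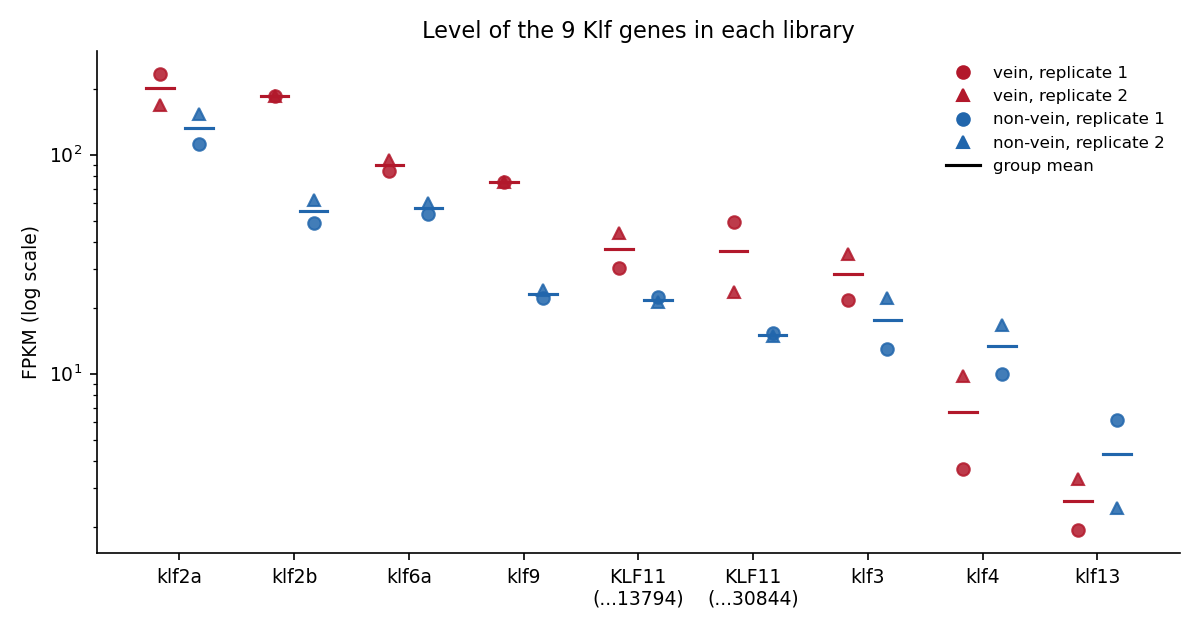
FPKM of the 9 Klf genes on a log axis, with 1 point for each library and a bar for each group's mean, vein left of non-vein. The 2 vein points of klf2b (185 FPKM) and of klf9 (75.3 and 75.1 FPKM) almost coincide and lie well above the non-vein points, while klf13 overlaps between groups.

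The paralogs klf2a and klf2b, both copies of the flow-responsive factor Klf2, did not give the same call. For klf2b there were 488 and 471 CPM in the vein libraries, against 127 and 165 CPM in non-vein libraries. The groups were far apart, with means of 479 ± 11.8 CPM in vein and 146 ± 27.3 CPM in non-vein (SD, n = 2 each). The level in vein was 3.29-fold higher (log2 fold 1.72, standard error 0.23, adjusted p = 0.0165, edgeR). With each library left out in turn the log2 fold of klf2b lay between 1.54 and 1.91 and it stayed past the threshold.

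For klf2a there were 524 and 385 CPM in the vein libraries, against 239 and 321 CPM in non-vein libraries. Both vein libraries were the higher ones, but the 2 libraries of each group lay farther apart than the nearest libraries of the 2 groups. The log2 fold was 0.70 (standard error 0.26, adjusted p = 0.144, edgeR), and klf2a passed the threshold under none of 16 other settings. The ratio of klf2b to klf2a in FPKM was 0.789 and 1.09 in the vein libraries, against 0.437 and 0.404 in the non-vein libraries. The ratio did not overlap between groups, and the exact two-sided permutation test gave p = 0.33, the smallest that 2 against 2 libraries allow. This ratio and those below were chosen after their values were seen.

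The second flow-responsive factor, klf4, also known as a pluripotency factor, had much lower levels and went the other way. It had 4.38 and 11.9 CPM in the vein libraries, against 11.4 and 18.7 CPM in non-vein libraries, with a log2 fold of -0.89 (standard error 0.72, adjusted p = 0.481, edgeR). The groups overlapped on the CPM scale, and on the FPKM scale the nearest libraries stood at 9.71 FPKM in vein and 9.97 FPKM in non-vein. With 67 and 186 counts in vein and 210 and 369 counts in non-vein, its fold depended on the libraries used, from -1.79 without vein replicate 2 to -0.35 without vein replicate 1 on the log2 scale.

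**Figure D2:**
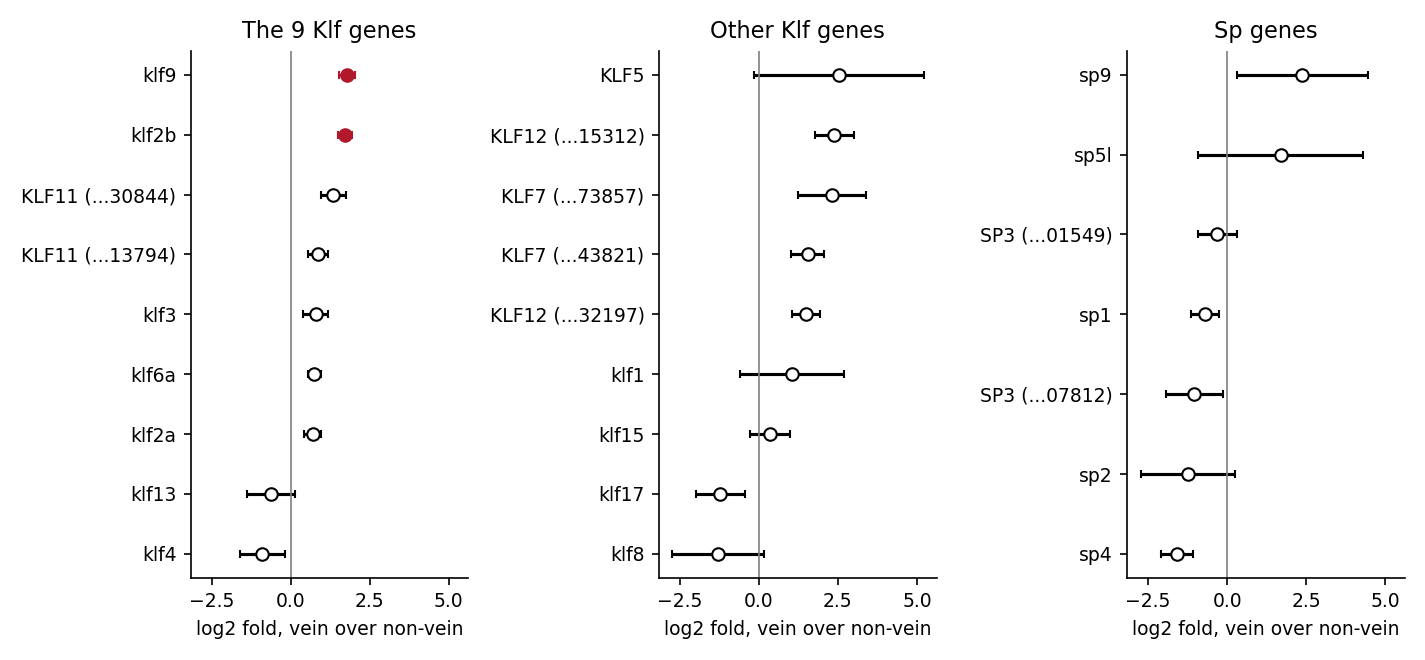
Log2 fold of vein over non-vein with its standard error for the 9 Klf genes (left), the other Klf genes tested (middle) and the Sp genes tested (right), where filled points passed an adjusted p of 0.05. Only klf9 and klf2b are filled, at 1.79 and 1.72.

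Of the flow pathway that acts upstream of Klf2, 23 of 26 listed symbols were matched and 21 genes were tested. Their median log2 fold was 0.41, beside 0.01 over all genes. With any 1 library left out it was 0.21 to 0.29, over the 21 or 22 genes tested in each such fit. Beside 4.11% higher and 7.33% lower over all genes tested, 2 of these 21 were higher and none was lower. One was PDCD10 (ENSDARG00000035054), a CCM protein gene, with 297 and 278 CPM in vein and 77.3 and 105 CPM in non-vein (log2 fold 1.66, adjusted p = 0.0194, edgeR). The second PDCD10 copy, ENSDARG00000012591, had 47.9 and 39.3 CPM in vein and 58.5 and 58.1 CPM in non-vein and did not pass (log2 fold -0.42, adjusted p = 0.398, edgeR). The other gene was cdh5, the endothelial cadherin of the junctional flow sensor, which is also on the pan-endothelial marker list. This gene had 295 and 349 CPM in vein and 120 and 155 CPM in non-vein (log2 fold 1.23, adjusted p = 0.0335, edgeR). The part that the higher pan-endothelial level in vein has in it was not tested. The call of cdh5 was lost without non-vein replicate 1 (adjusted p = 0.0674, edgeR), vein replicate 1 (0.0634) or vein replicate 2 (0.0887).

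The core of the cascade was present at low levels without a call. The MEKK3 gene map3k3 had 12.3 and 4.34 CPM in vein and 9.83 and 4.12 CPM in non-vein, and the ERK5 gene mapk7 had 13.6 and 9.76 CPM in vein and 9.62 and 15.1 CPM in non-vein. Both overlapped between groups. The CCM genes krit1 and ccm2 had log2 folds of -0.95 and -0.88 and neither passed. Of the MEF2 genes, MEF2C (ENSDARG00000009418) had 55.6 and 46.8 CPM in vein and 22.6 and 29.1 CPM in non-vein (log2 fold 0.99, adjusted p = 0.108, edgeR), so its groups did not overlap but the difference did not pass.

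Of genes known as targets of flow or of Klf2, 31 were tested from 36 matched symbols of 37. These targets were not divided by direction of regulation, so counts and medians of the list do not measure Klf2 activity. Beside 4.11% higher and 7.33% lower over all genes tested, 5 of these 31 were higher and 4 lower. Their median log2 fold was 0.93 with all libraries. Without vein replicate 2 the median of the list was -0.52, but over the 34 genes tested in that fit. The higher count was 8 without non-vein replicate 1 or 2, and the lower count was 6 without vein replicate 2 and 2 without non-vein replicate 2. The higher genes were s1pr1, tie1, wnt9a, vcam1b and aplnra, of which the last 3 were picked after seeing their values. The sphingosine-1-phosphate receptor gene s1pr1, a Klf2 target in mouse T cells, had 693 and 802 CPM in vein, against 106 and 200.1 CPM in non-vein (log2 fold 2.29, adjusted p = 0.0200, edgeR). The receptor gene tie1, also on the pan-endothelial marker list, had 247 and 189 CPM in vein, against 43.7 and 62.0 CPM in non-vein (log2 fold 2.05, adjusted p = 0.0183, edgeR). The Wnt ligand gene wnt9a had 76.1 and 70.3 CPM in vein, against 3.10 and 8.59 CPM in non-vein. The adhesion gene vcam1b had 218 and 161 CPM in vein and 5.98 and 20.0 CPM in non-vein, and the apelin receptor gene aplnra had 251 and 158 CPM in vein and 84.3 and 53.9 CPM in non-vein. All 5 had groups that did not overlap.

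The 4 lower genes were both rows named CXCR4, ANGPT2 and 1 of the selectin genes. The list names cxcr4a alone, so 1 of the rows named CXCR4 is not the listed gene, and which one is not given. Both rows are also counted among the arterial markers. CXCR4 (ENSDARG00000041959), a receptor for the chemokine CXCL12 that leukocytes and arteries also express, had 15.1 and 48.1 CPM in vein, against 1377 and 916 CPM in non-vein (log2 fold -5.18, adjusted p = 0.0157, edgeR). Its second copy, ENSDARG00000057633, had 7.77 and 7.84 CPM in vein and 88.1 and 125 CPM in non-vein (log2 fold -3.77, adjusted p = 0.0120, edgeR). The angiopoietin gene ANGPT2 had 1.18 and 3.12 CPM in vein and 25.0 and 33.5 CPM in non-vein. The row named SELE, ENSDARG00000042138, had 0.131 and 0 CPM in vein and 12.9 and 7.67 CPM in non-vein. Arterial and leukocyte marker sums were also lower in vein, with the values given above, and their part in these 4 was not tested.

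Other listed targets of flow or of Klf2 did not pass. The thrombomodulin gene thbd had 5.29 and 3.51 CPM in vein and 0.217 and 1.63 CPM in non-vein (adjusted p = 0.349, edgeR), and the endothelin gene edn1 had 19.5 and 34.2 CPM in vein and 8.80 and 8.84 CPM in non-vein (adjusted p = 0.0980, edgeR). The connective tissue growth factor gene CCN2 had 604 and 817 CPM in vein and 34.3 and 192 CPM in non-vein (adjusted p = 0.0844, edgeR). The 2 non-vein libraries differed several-fold in CCN2, and no call was made although the groups did not overlap.

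The niche factor klf6a had 290 and 332 CPM in the vein libraries, against 177 and 192 CPM in non-vein libraries. The groups did not overlap and averaged 311 ± 29.8 CPM in vein and 185 ± 11.01 CPM in non-vein (SD, n = 2 each). The log2 fold was 0.75 (1.68-fold, standard error 0.21) with an adjusted p of 0.0746 by edgeR, so klf6a did not pass in the fit used here. It passed under 2 of 16 other settings, DESeq2 (adjusted p = 0.0265) and limma-voom (0.0448), and its log2 fold lay between 0.65 and 0.84 with each library left out.

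The chemokine gene ccl25b, known in zebrafish to act downstream of klf6a, had 33 counts in each vein library and 0 in both non-vein libraries. Set against a floor of 3 counts over the non-vein group, its level in vein was at least 27.0-fold higher, with an adjusted p of 0.0709 by edgeR, which did not pass. The setting that required 50 counts in 2 libraries did not test ccl25b. Among the remaining settings it passed under 5: DESeq2 (adjusted p = 0.0181), the edgeR version 4 method (0.0498) and all 3 limma fits on FPKM (0.0235 to 0.0317). With each library left out the adjusted p was 0.199 to 0.379. Its level of 2.16 and 2.10 CPM in vein was far under that of klf6a. Transcripts of ccr7, the receptor known on progenitor cells, reached 3 counts in non-vein replicate 2 and 0 in the other 3 libraries, and ccl25a and 1 of the rows named CCR9 had none. The other row named CCR9 (ENSDARG00000055186), a second receptor for CCL25 found on T cell progenitors, had 5.81 and 14.1 CPM in vein and 205 and 129 CPM in non-vein. It was 16.8-fold lower in vein (log2 fold -4.07, standard error 0.54, adjusted p = 0.0164, edgeR), alongside the leukocyte markers, and their part in it was not tested.

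The glucocorticoid-responsive factor klf9, which binds a basic transcription element and is induced by glucocorticoid and thyroid hormone receptors, had close replicates in both groups. It had 112 and 115 CPM in the vein libraries, against 31.7 and 33.7 CPM in non-vein libraries. The means were 114 ± 1.61 CPM in vein and 32.7 ± 1.42 CPM in non-vein (SD, n = 2 each), a 3.47-fold higher level in vein (log2 fold 1.79, standard error 0.25, adjusted p = 0.0177, edgeR). Without any 1 library the log2 fold of klf9 lay between 1.75 and 1.83, and it passed under 15 of 16 other settings. The ratio of klf9 to klf2a in FPKM was 0.321 and 0.445 in vein libraries, against 0.198 and 0.157 in non-vein libraries.

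Of the genes of the glucocorticoid and thyroid hormone axis, 14 of 17 symbols were matched and 13 genes tested. Beside 4.11% higher and 7.33% lower over all genes tested, 2 of these 13 were higher and none was lower. Their median log2 fold was 1.27, and it was 0.83 without non-vein replicate 1 and 2.03 without non-vein replicate 2. The higher genes were PDK2 (ENSDARG00000059054), a kinase that restrains pyruvate dehydrogenase, and dio1, a deiodinase that acts on thyroid hormone. PDK2 had 1151 and 1604 CPM in vein and 229.7 and 199 CPM in non-vein (log2 fold 2.68, adjusted p = 0.0125, edgeR). The second row named PDK2, ENSDARG00000020876, did not pass. The deiodinase gene dio1 had 87.0 and 120 CPM in vein and 11.03 and 21.3 CPM in non-vein (log2 fold 2.67, adjusted p = 0.0217, edgeR). At an unadjusted p under 0.05 by edgeR, 7 of the 13 were higher, beside 12.3% of all genes tested. By DESeq2 5 of the list were higher, by edgeR's version 4 method 4 and by limma-voom 3. The glucocorticoid receptor gene nr3c1 itself had 23.4 and 26.5 CPM in vein and 21.7 and 25.5 CPM in non-vein, with overlapping groups and a log2 fold of 0.08 (adjusted p = 0.921, edgeR). The receptor's known targets fkbp5 and tsc22d3 were above in both vein libraries, but did not pass. For fkbp5 the values were 88.6 and 129 CPM in vein and 42.7 and 64.0 CPM in non-vein (adjusted p = 0.106, edgeR), and for tsc22d3 90.3 and 81.2 CPM in vein and 41.8 and 52.1 CPM in non-vein (0.0978).

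The KLF11 genes encode repressors that are induced by transforming growth factor beta (TGF-beta) and recruit SIN3A in mammals, and neither passed the threshold. KLF11 ENSDARG00000013794 had 59.2 and 87.9 CPM in vein, against 41.7 and 38.7 CPM in non-vein (log2 fold 0.87, standard error 0.32, adjusted p = 0.131, edgeR). KLF11 ENSDARG00000030844 had 104 and 50.8 CPM in vein, against 30.9 and 29.4 CPM in non-vein (log2 fold 1.36, standard error 0.41, adjusted p = 0.0897, edgeR). In both, the vein libraries lay above the non-vein libraries, which were close to each other, but the vein libraries differed and in opposite order. The ratio of ENSDARG00000030844 to ENSDARG00000013794 in FPKM was 1.62 and 0.534 in vein libraries and 0.685 and 0.704 in non-vein libraries, so vein replicate 1 alone had more of the first. Without vein replicate 2, KLF11 ENSDARG00000030844 passed with a log2 fold of 1.78 (adjusted p = 0.0331, edgeR), and without vein replicate 1 it stood at 0.75 (0.314).

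Of 18 genes of the TGF-beta pathway tested, from 18 of 19 symbols matched, none passed in the edgeR fit used here at an adjusted p of 0.05. Their median log2 fold was 0.85. With edgeR's version 4 method 3 were higher, as were 3 without a filter and 1 with 50 counts required in 2 libraries. At an unadjusted p under 0.05, 6 were higher, as were 5 by DESeq2 and 2 by limma-voom, and 3 passed in edgeR without non-vein replicate 2. The most abundant were the receptor gene TGFBR2 (ENSDARG00000034541), with 144 and 116 CPM in vein and 10.4 and 57.1 CPM in non-vein (adjusted p = 0.156, edgeR), and the inhibitor gene smad7, with 90.6 and 126 CPM in vein and 45.7 and 47.3 CPM in non-vein (0.0507). TGFBR2 passed without non-vein replicate 2 (log2 fold 3.64, adjusted p = 0.00437, edgeR).

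**Figure D3:**
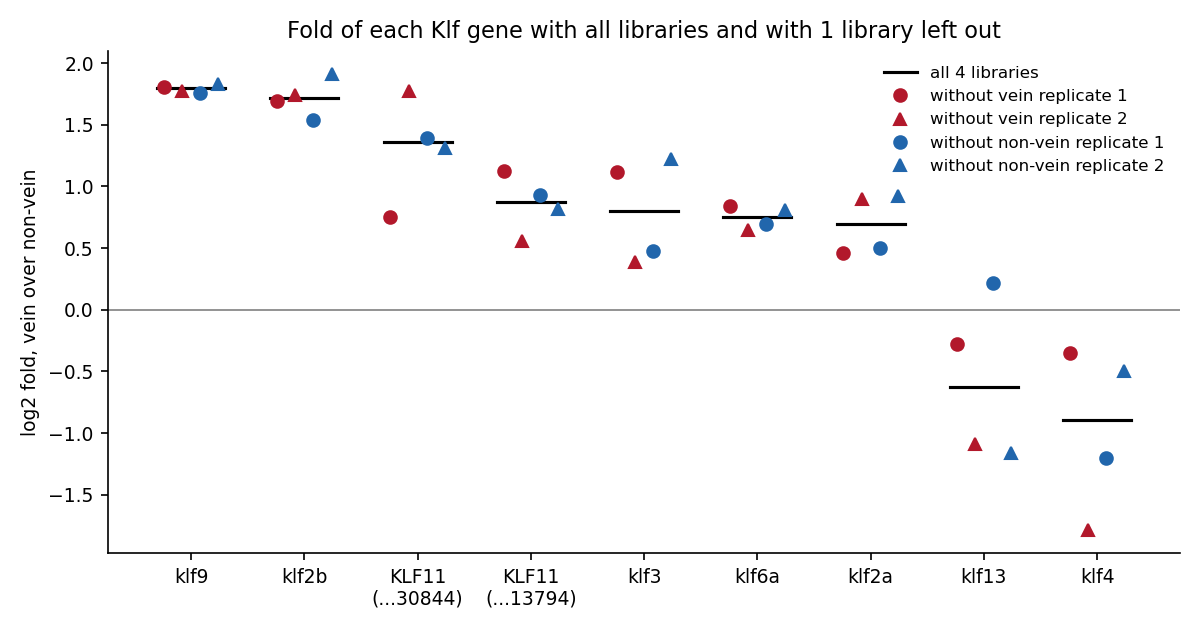
Log2 fold of vein over non-vein for each of the 9 Klf genes, with all 4 libraries (black line) and with each library left out (1 point each, red for a vein library and blue for a non-vein library). The points of klf9 and klf2b stay between 1.54 and 1.91, those of KLF11 ENSDARG00000030844 spread from 0.75 to 1.78, and klf13 changes sign without non-vein replicate 1.

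The remaining members did not pass either. The repressor gene klf3, whose protein binds the corepressor CtBP in mouse, had 72.6 and 120 CPM in vein, against 41.1 and 69.4 CPM in non-vein (log2 fold 0.80, standard error 0.40, adjusted p = 0.249, edgeR). Its groups did not overlap on the CPM scale, but on the FPKM scale vein replicate 1 had 21.8 and non-vein replicate 2 had 22.3. The gene klf13, whose mammalian protein recruits SIN3A and in human T cells drives the chemokine CCL5, had 5.03 and 8.80 CPM in vein, against 15.4 and 5.94 CPM in non-vein (log2 fold -0.62, standard error 0.77, adjusted p = 0.663, edgeR). Non-vein replicate 1 was the high library, and without it the log2 fold was 0.22.

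Of genes for cofactors and for turnover of Klf proteins, 25 were tested, from 25 of 26 symbols matched. Beside 4.11% higher and 7.33% lower over all genes tested, 1 of these 25 was higher and 1 lower. The median log2 fold of the list was 0.05, which was -0.14 without vein replicate 2 and 0.15 without non-vein replicate 2. Without vein replicate 1 or 2 the lower count was 2 or 3, and without non-vein replicate 2 the higher count was 2. The LIM protein gene FHL2 (ENSDARG00000042018) was higher, with 315 and 247 CPM in vein and 8.75 and 34.9 CPM in non-vein (log2 fold 3.69, adjusted p = 0.0291, edgeR). The histone deacetylase gene hdac1, a subunit of the SIN3A and NuRD complexes, was lower, with 287 and 314 CPM in vein and 991 and 978 CPM in non-vein (log2 fold -1.71, standard error 0.19, adjusted p = 0.0144, edgeR). The 2 rows of CTBP1, the corepressor known to bind Klf3, had log2 folds of 0.05 and -0.53 and did not pass.

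**Figure D4:**
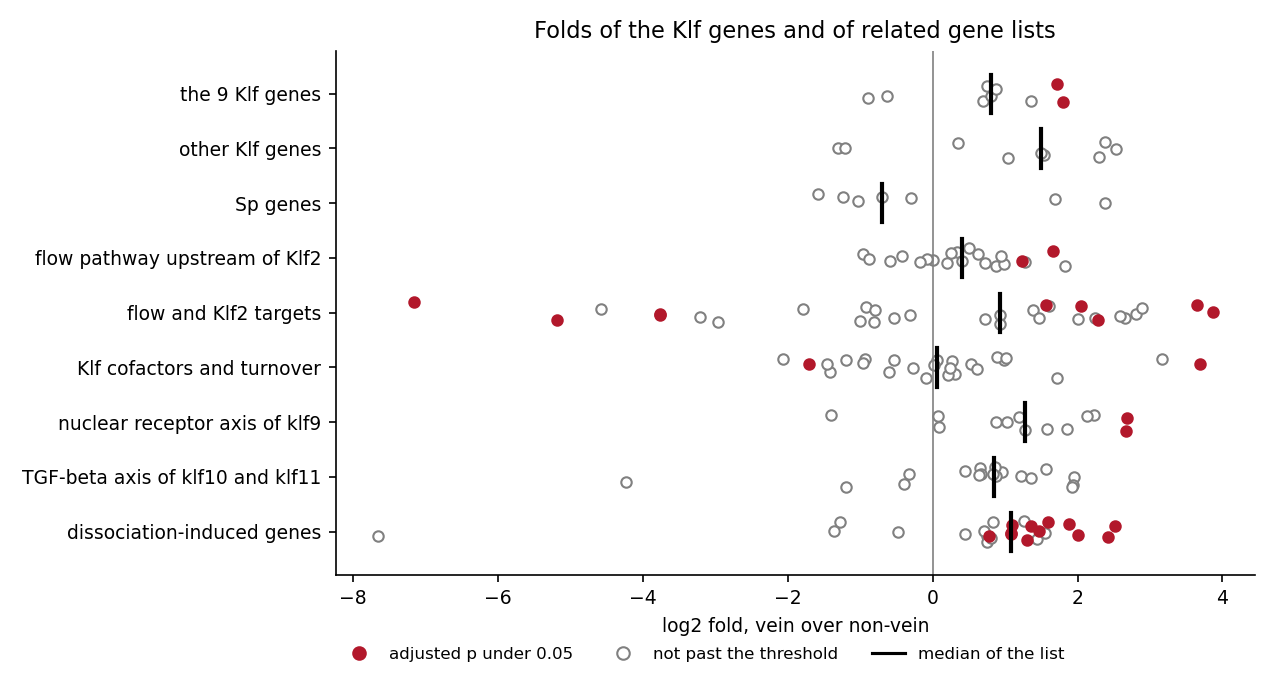
Log2 fold of vein over non-vein for each tested gene of the 9 Klf genes and of 8 related lists, where filled points passed an adjusted p of 0.05 and the black bar is the median of a list. The medians run from -0.70 for the Sp genes to 1.49 for the other Klf genes, and the list of dissociation-induced genes holds the most filled points, 12 of 25.

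Among the other Klf genes, 12 of 17 symbols were matched to 12 identifiers, and 9 genes were tested. In the edgeR fit used here none passed at an adjusted p of 0.05, with 3 higher at an unadjusted p under 0.05. By DESeq2 3 were higher and by limma-voom 1. With edgeR's version 4 method 2 were higher, as were 2 without a filter and 1 with 50 counts required in 2 libraries. The median log2 fold was 1.49 (0.97 without vein replicate 2). The most abundant were the 2 rows named KLF12, a repressor of AP-2 alpha in mammals. KLF12 ENSDARG00000015312 had 66.3 and 83.7 CPM in vein and 6.63 and 22.1 CPM in non-vein (log2 fold 2.38, standard error 0.61, adjusted p = 0.0625, edgeR), and it passed without non-vein replicate 2 (adjusted p = 0.00831). KLF12 ENSDARG00000032197 had 41.9 and 80.7 CPM in vein and 18.5 and 25.1 CPM in non-vein (log2 fold 1.49, standard error 0.43, adjusted p = 0.0811, edgeR), and it passed without vein replicate 1 (0.0490). The related Sp genes, which share the zinc fingers, gave 7 tested genes from 12 symbols. None passed in the edgeR fit used here, and 1 was lower with edgeR's version 4 method. Their median log2 fold was -0.70. This median was -1.55 without vein replicate 2, -0.22 without vein replicate 1 and -0.40 without non-vein replicate 1. At an unadjusted p under 0.05, 1 was lower, as was 1 by DESeq2, and 2 passed in edgeR without vein replicate 2. The most abundant Sp genes were SP3 (ENSDARG00000001549), with 20.1 and 75.1 CPM in vein and 61.3 and 56.2 CPM in non-vein (log2 fold -0.30, adjusted p = 0.808, edgeR), and sp1, with 17.6 and 37.7 CPM in vein and 47.3 and 42.5 CPM in non-vein (log2 fold -0.70, adjusted p = 0.371, edgeR).

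Since the summed pan-endothelial markers were themselves higher in vein, the Klf genes were also set against them. For 8 of these 9 markers both vein libraries lay above both non-vein libraries, and for 1 they lay below. Per 1000 CPM of the pan-endothelial list, klf2b had 37.4 and 44.6 in vein libraries and 42.7 and 39.8 in non-vein libraries, and klf9 had 8.62 and 10.9 in vein and 10.7 and 8.13 in non-vein. On this scale both overlapped between groups. In contrast klf2a had 40.2 and 36.4 in vein and 80.7 and 77.3 in non-vein, and klf6a 22.2 and 31.4 in vein and 59.7 and 46.3 in non-vein, so that on this scale both were below the non-vein libraries. The receptor gene kdrl made up 80.5% and 75.0% of the list's CPM in vein and 67.4% and 71.2% in non-vein. Its promoter drove the GFP on which both groups were sorted. Without kdrl, klf2b had 192 and 178 in vein and 131 and 138 in non-vein, klf9 had 44.3 and 43.5 in vein and 32.9 and 28.2 in non-vein, and neither overlapped. Without kdrl, klf2a had 206 and 146 in vein and 248 and 269 in non-vein, and klf6a had 114 and 126 in vein and 183 and 161 in non-vein. Under both forms of the list klf2a and klf6a were lower in both vein libraries, whereas per library total they were above both non-vein libraries. The order of klf2b and klf9 rested on whether kdrl was counted. No such ratio can pass an exact permutation test with 2 libraries a group.

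**Figure D5:**
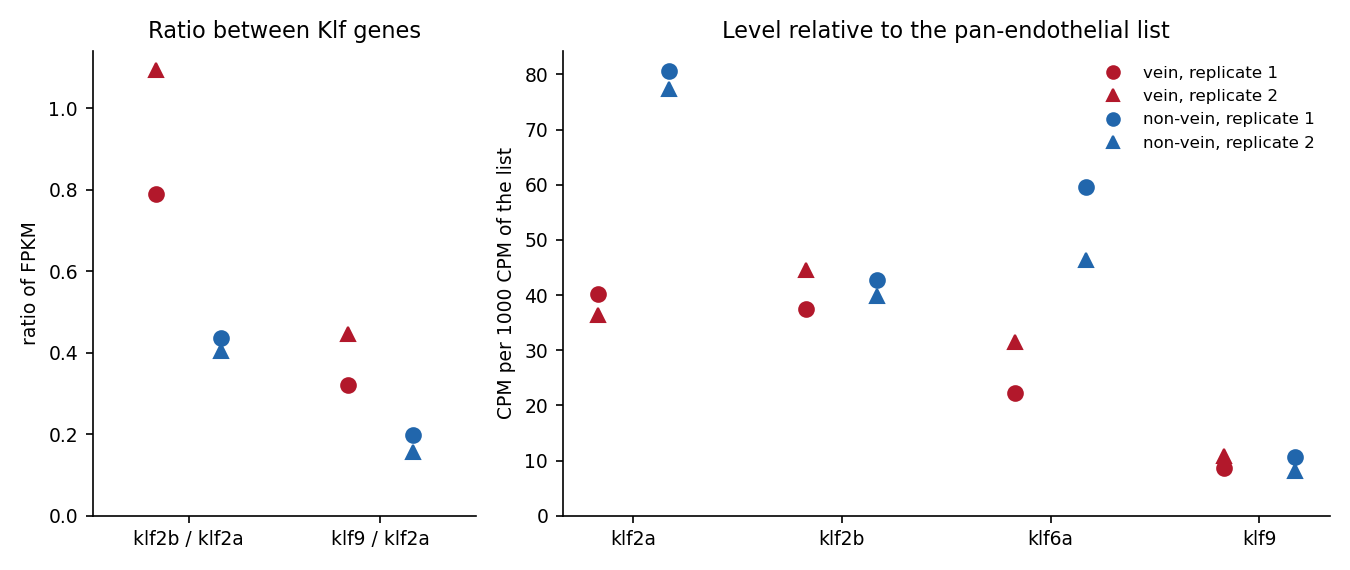
Ratios in each library, vein left of non-vein, with klf2b over klf2a and klf9 over klf2a in FPKM (left), and klf2a, klf2b, klf6a and klf9 in CPM per 1000 CPM of the pan-endothelial list with kdrl included (right). Both ratios on the left are higher in the vein libraries, while on the right klf2a and klf6a are lower in the vein libraries and klf2b and klf9 overlap.

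Klf2, Klf4, Klf6 and Klf9 are also among genes known to respond to the dissociation of tissue into cells. Beside 4.11% higher and 7.33% lower over all genes tested, 12 of 25 other dissociation-induced genes tested were higher in the vein group and none lower. At an unadjusted p under 0.05 by edgeR, 18 were higher and 2 lower. By DESeq2 17 were higher, and by limma-voom 15 were higher and 1 lower. By limma on log2(FPKM + 1) 4 were higher, and on log2(FPKM + 0.1) 0 were. Their median log2 fold was 1.08. Their summed level was 75398 and 83414 CPM in vein libraries, against 28102 and 30752 CPM in non-vein libraries. The AP-1 gene JUNB (ENSDARG00000104773) had 20688 and 23655 CPM in vein and 6315 and 5694 CPM in non-vein (log2 fold 1.88, adjusted p = 0.0124, edgeR), and the immediate early gene ier2a had 10078 and 10212 CPM in vein and 2213 and 2829 CPM in non-vein (log2 fold 2.01, adjusted p = 0.0141, edgeR). The part of the dissociation response in the values of the Klf genes was not tested.

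The 5 named genes whose centred log2 CPM lay nearest to that of klf2a over the 4 libraries were f3a, ST3GAL5, UBE2A, COL4A1 and ATG4A, at Euclidean distances of 0.052 to 0.093. The nearest to klf6a were CAPNS1, CAVIN2, WNK1, PSME4 and PARP6, at distances of 0.035 to 0.076. CAVIN2, a gene for a coat protein of caveolae, had 216 and 240 CPM in vein and 127 and 137 CPM in non-vein (log2 fold 0.79). COL4A1, a basement membrane collagen gene, had 40.4 and 27.9 CPM in vein and 17.6 and 25.1 CPM in non-vein (log2 fold 0.68). None of these 10 genes passed the threshold, and neither did klf2a or klf6a. Their folds are near those of klf2a or klf6a because they were chosen that way. Likeness over 4 libraries is a description of these libraries.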

How the data were processed

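Sorted cells were lysed for total RNA with Trizol, and mRNA libraries (NEBNext Ultra) were sequenced on an Illumina NovaSeq, per the labels' protocols. Tools named in the submitters' processing notes are HISAT2, Bowtie2 2.2.8, fastp 0.18.0, RSEM, StringTie 1.3.1 and DESeq2, with build GRCz11. The labels do not say whether counting used strand. One table deposited by the authors holds estimated counts: its column names say FPKM, per the file headers, yet it has whole numbers with a different sum in each library, and it was read as rounded estimated counts. The other holds FPKM values, also deposited by the authors, which served for levels and alternatives. Reads of close paralogs (klf2a and klf2b, KLF11, KLF12, CXCR4, PDCD10, JUNB) may be split between them wrongly.

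The test was edgeR 4.0.16 in R 4.3.3: quasi-likelihood, legacy method, group as sole factor, TMM, filterByExpr with a minimum count of 10, and Benjamini-Hochberg adjustment over 15953 genes at 0.05. The common coefficient of biological variation came to 0.699. A log2 fold is vein over non-vein, and dividing it by the square root of F gave its standard error. A count of 3 equals 0.196 and 0.191 CPM in vein libraries and 0.163 and 0.152 CPM in non-vein libraries, a floor that covers counting error only. An exact two-sided permutation test of 2 against 2 libraries cannot go below p = 0.33.

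Members and lists were chosen with earlier results of these data known, so lists are described by counts and medians and not tested. A list's median with 1 library left out is over the genes that passed the filter on low counts in that fit, which can differ from those of the full fit. Where a list gives 1 paralog, such as cxcr4a, and the name without its letter stands at 2 rows, both rows were counted. By rule the text names the members, up to 4 changed genes of a list in order of adjusted p (if none changed, its 2 most abundant), tested genes of the klf6a axis, and the 5 genes nearest to klf2a and to klf6a. Not every gene under this rule is reported here: markers mostly appear as counts and sums. Further genes were picked once their values were known. Alternatives, 16 in all, were DESeq2 1.42.0; edgeR with DESeq2 size factors, with unscaled library totals, without a filter, with 50 counts required in 2 libraries, with its version 4 method, with robust estimation or with a replicate block; limma-voom (limma 3.58.1); limma on log2(FPKM + 1) and log2(FPKM + 0.1) above a mean FPKM of 1, and on unfiltered log2(FPKM + 1); and omission of each library. The edgeR test was also run on simulated counts, and those results are not reported here.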

Additional observations from a re-analysis of the deposited data

How the results depend on the processing

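The number of changed genes, 1826, was 4079 with DESeq2, 3213 with the edgeR version 4 method, 2845 with no filter, 484 and 270 with limma on log2(FPKM + 0.1) and on unfiltered log2(FPKM + 1), and 1084 to 1903 with 1 library left out. The count of changed Klf genes, 2, was 4 with DESeq2, 0 on log2(FPKM + 0.1), 1 on unfiltered log2(FPKM + 1) and 2 to 3 with 1 library left out. On the log2 scale klf2b did not pass on log2(FPKM + 0.1) (1.75) or unfiltered log2(FPKM + 1) (1.73), nor klf9 on log2(FPKM + 0.1) (1.70). In turn klf6a passed with DESeq2 (0.74) and limma-voom (0.75), and KLF11 ENSDARG00000030844 with DESeq2 (1.34), the version 4 method (1.36) and no filter (1.34). With 1 library left out KLF11 ENSDARG00000030844 ranged from 0.75 to 1.78 and klf13 from -1.16 to 0.22. Signs turned with 1 library left out for SP3 ENSDARG00000001549 (-1.55 to 0.35), hbae1.1 (-0.51 to 0.24), krt4 (-1.47 to 1.61) and cyt1 (-1.08 to 3.90), and for krt4 on log2(FPKM + 0.1) (-0.0052). The cause was not tested. The median of all genes moved by -0.11 on log2(FPKM + 1), -0.16 on log2(FPKM + 0.1) and -0.17 without vein replicate 2. Of 144 values of Klf genes under alternatives, 134 kept direction and side of the threshold. With a replicate block the counts were 1170 genes and 2 Klf genes, and klf2b (1.73) and klf9 (1.80) still passed. Replicate differences correlated at only 0.04 between groups, so the numbers were not taken as pairing. The low counts of klf4, klf13, ccl25b and ccr7 limit what could be detected for them.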
